A study of Mus musculus with 18 samples.

Results

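Histone genes encode the proteins around which DNA is wound. Rows of the deposited expression table were taken by gene symbol, where the symbol began with Hist1h to Hist4h, H2af, H3f3 or H1f, which gave 67 of 14419 genes. Of these, 55 were genes of the histone clusters (5 for H1, 13 for H2A, 17 for H2B, 12 for H3 and 8 for H4) and 12 were variant genes that lie outside the clusters. The clustered genes came from the loci Hist1 (43 genes), Hist2 (10) and Hist3 (2). The 2 kinds are reported apart.

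RNA was sequenced from 3 populations of haematopoietic cells, isolated by sorting of marrow from C57BL/6 mice (adult, male) given tamoxifen or the vehicle, corn oil. The populations were long-term haematopoietic stem cells (LT), short-term haematopoietic stem cells (ST) and multipotent progenitors (MPP). The 6 groups were MPP oil and MPP tamoxifen after 1 week, LT oil and LT tamoxifen after 2 weeks, and ST oil and ST tamoxifen after 2 weeks, with 3 libraries in each. No transgene or mutation is named in the labels of any group. The design text calls the 3 libraries of a group biological replicates, and the labels name no sort gates. Because the MPP libraries followed 1 week and the others 2 weeks, population and duration cannot be told apart in any comparison of MPP with LT or ST. The numbers that open the library titles run on from MPP to LT and start again for ST, and the labels do not say why. If the ST libraries were handled apart, that cannot be told from population where ST is compared with LT or MPP.

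Clustered histone genes are transcribed mainly in S phase, when new DNA needs new nucleosomes. Their mRNAs typically end in a conserved stem-loop, bound by the protein SLBP, in place of a poly(A) tail. Variant histones are for the most part made throughout the cell cycle from ordinary polyadenylated mRNAs, though H2afx also has an annotated stem-loop. H2A.Z (H2afz, H2afv) and H3.3 (H3f3a, H3f3b) are placed at active promoters and regulatory elements, and macroH2A (H2afy, H2afy2) at repressed chromatin. H2A.X (H2afx) lies throughout chromatin, where it is phosphorylated around DNA breaks.

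The stem-loop separated the 2 kinds of gene in the annotation. It was found, by its histone consensus, in an annotated transcript of 37 of 55 clustered genes and in 1 of 12 variants, H2afx, against 160 of 55450 genes in GENCODE vM21 (0.29%). The forms of the genes described below are shown because they are the element by which these mRNAs are processed. The loop is in capitals, and the form of Hist1h2bm was the most frequent, in 24 genes.
Hist1h2bm: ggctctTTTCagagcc
Hist1h2bk: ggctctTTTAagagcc
Hist1h4d: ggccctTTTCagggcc
Hist2h4: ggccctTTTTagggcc
H2afx: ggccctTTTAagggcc
The stem of Hist1h2bm and Hist1h2bk was shared by H1, H2A, H2B and H3 genes. The stem of Hist1h4d and Hist2h4 was found in 6 genes for H4 and in H2afx. In 19 of the 37 clustered genes an annotated transcript ran more than 100 bases past the stem-loop, as in Hist1h4d (770 bases), Hist2h4 (1257 bases) and Hist1h2be (1861 bases). In the other 18 it ended within 100 bases, as in Hist1h2bk (30 bases) and Hist1h2bm (46 bases).

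Promoters, 250 bases before to 50 after the start site, were matched for 58 of the 67 genes in RefSeq (GRCm38.p6). The pentamer CCAAT, searched on both strands with overlapping matches counted, was present in 43 of 48 clustered promoters (89.6%), in 6 of 10 variant promoters (60.0%) and in 37.9% of all 27025 promoters of this length. All 41 matched promoters of H1, H2A, H2B and H3 genes held it, and 2 of 7 H4 promoters did. TATAAA was present in 27 of 48 clustered promoters (56.2%) and in 14.2% of all promoters, and 6 of the 7 H4 promoters held it. The octamer ATTTGCAT was present in 5 of 15 H2B and 4 of 11 H2A promoters and in no H1, H3 or H4 promoter, against 1.8% of all promoters. The 200 bases before the start site are shown for the 6 clustered genes with the smallest p among those that passed the test in a comparison below and had a promoter, with all 3 motifs in capitals on either strand. These lie at chr13:23763468-23763667 (Hist1h1a, plus strand), chr13:21716184-21716383 (Hist1h2bl, minus strand), chr13:23621095-23621294 (Hist1h2be, minus strand), chr13:22035621-22035820 (Hist1h2bk, plus strand), chr13:23562386-23562585 (Hist1h3e, minus strand) and chr13:22041363-22041562 (Hist1h4i, minus strand).
Hist1h1a: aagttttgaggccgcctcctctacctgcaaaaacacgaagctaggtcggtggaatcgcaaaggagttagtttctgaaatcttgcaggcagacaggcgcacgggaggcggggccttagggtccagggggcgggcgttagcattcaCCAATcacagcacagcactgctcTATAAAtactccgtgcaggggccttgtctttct
Hist1h2bl: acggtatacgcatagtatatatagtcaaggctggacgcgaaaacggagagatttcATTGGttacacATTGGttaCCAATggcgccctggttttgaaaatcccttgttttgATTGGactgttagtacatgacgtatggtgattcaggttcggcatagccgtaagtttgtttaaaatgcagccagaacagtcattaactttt
Hist1h2be: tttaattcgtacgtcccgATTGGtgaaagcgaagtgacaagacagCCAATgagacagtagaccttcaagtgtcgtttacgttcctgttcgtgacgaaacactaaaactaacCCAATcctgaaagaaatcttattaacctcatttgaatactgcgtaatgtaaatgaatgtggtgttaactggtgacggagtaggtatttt
Hist1h2bk: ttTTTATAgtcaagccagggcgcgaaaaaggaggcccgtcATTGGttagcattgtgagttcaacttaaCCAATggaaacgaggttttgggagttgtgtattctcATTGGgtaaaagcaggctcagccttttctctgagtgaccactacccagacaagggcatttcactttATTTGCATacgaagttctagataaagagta
Hist1h3e: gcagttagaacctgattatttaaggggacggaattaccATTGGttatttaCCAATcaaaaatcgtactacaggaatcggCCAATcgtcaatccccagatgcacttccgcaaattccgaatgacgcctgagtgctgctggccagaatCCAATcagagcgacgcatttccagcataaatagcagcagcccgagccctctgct
Hist1h4i: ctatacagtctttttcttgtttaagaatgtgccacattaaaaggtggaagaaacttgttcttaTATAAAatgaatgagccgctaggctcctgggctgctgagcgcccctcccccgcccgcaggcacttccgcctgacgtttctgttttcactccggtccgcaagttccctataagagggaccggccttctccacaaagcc
The promoters of Hist1h2bl, Hist1h2be, Hist1h2bk and Hist1h3e each held 3 or 4 CCAAT matches, and that of Hist1h2bk held the octamer and TATAAA as well. Hist1h1a had 1 CCAAT followed by TATAAA, and Hist1h4i had TATAAA and no CCAAT. A match is a description of the letters, and binding was not measured.

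Values are given as deposited, as normalised CPM (counts scaled to a common library size) not divided by gene length, so the levels of a gene are compared between groups. The reads behind them numbered 2728800 to 5279821 per library. As a measure of reads behind each gene and not of expression, 34 of 55 clustered genes and 9 of 12 variants reached a mean of 5 CPM over the 18 libraries. Tests used limma on log2(CPM + 1) with Benjamini-Hochberg adjustment over all 14419 genes and a threshold of 0.05. The median standard error of a log2 fold change was 0.38 for clustered genes and 0.21 for variants. p-values measure only the spread between these libraries. In such bulk samples, fewer cells of a type and less RNA per cell cannot be told apart.

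Many clustered genes share sequence, which limits what one row can say. The median clustered gene shared 57.0% of its 50-base stretches with another annotated gene, and 30 of 55 shared more than 50%. For variants the median was 11.8%. Hist1h2ao and Hist1h2ap had identical values in all 18 libraries, as did Hist2h2aa1 and Hist2h2aa2, and each pair is 1 measurement printed on 2 rows. Hist1h2aj, H3f3c and H2afy3 are annotated as pseudogenes, and H3f3c shared 73.8% of its 50-base stretches with other genes. Rows with large shared parts, among them Hist1h3i (87.6%), Hist1h2bl (82.8%), Hist1h2bk (74.2%) and Hist1h3e (73.4%), are uncertain as to which copy the reads came from. Hist1h4d (10.2%), Hist2h4 (1.0%) and Hist1h1a (0.0%) shared little or nothing.

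One library stood apart. Reads of LT tamoxifen A differed from those of B and C by a chi-square of 27.1 and 26.1 per degree of freedom over genes, where the other 16 pairs of libraries within groups lay between 2.79 and 10.6. In LT tamoxifen library A the summed clustered genes reached 447 CPM (0.0383% of reads), against 876 and 1019 CPM in LT tamoxifen B and C and 715 to 828 CPM in LT oil. It was the lowest of the 6 LT libraries for 29 of 55 clustered genes and 7 of 12 variants, against 30.6% of all genes. Hist1h4d was 46.2 CPM there against 188 and 224 CPM in B and C, and H2afx was 27.5 CPM against 118 and 107 CPM. The H2B gene Hist1h2bc went the other way, at 26.0 CPM against 20.4 and 16.7 CPM. Reads of both mitochondrial ribosomal RNAs made up 25.4% of this library, against 17.7% to 18.7% of the other 5 LT libraries, and their part in the low histone values was not tested. The 30 S phase replication genes summed to 2702 CPM there, against 2436 and 2595 CPM in B and C. As shares of reads these were 0.235% against 0.259% and 0.269%, with 0.195% to 0.237% in LT oil, so the order within LT tamoxifen turned with the scale. Since all 18 libraries share 1 estimate of the spread in the model, the counts of histone genes past the threshold are also given without this library, a step added after its values were seen.

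**Figure D1:**
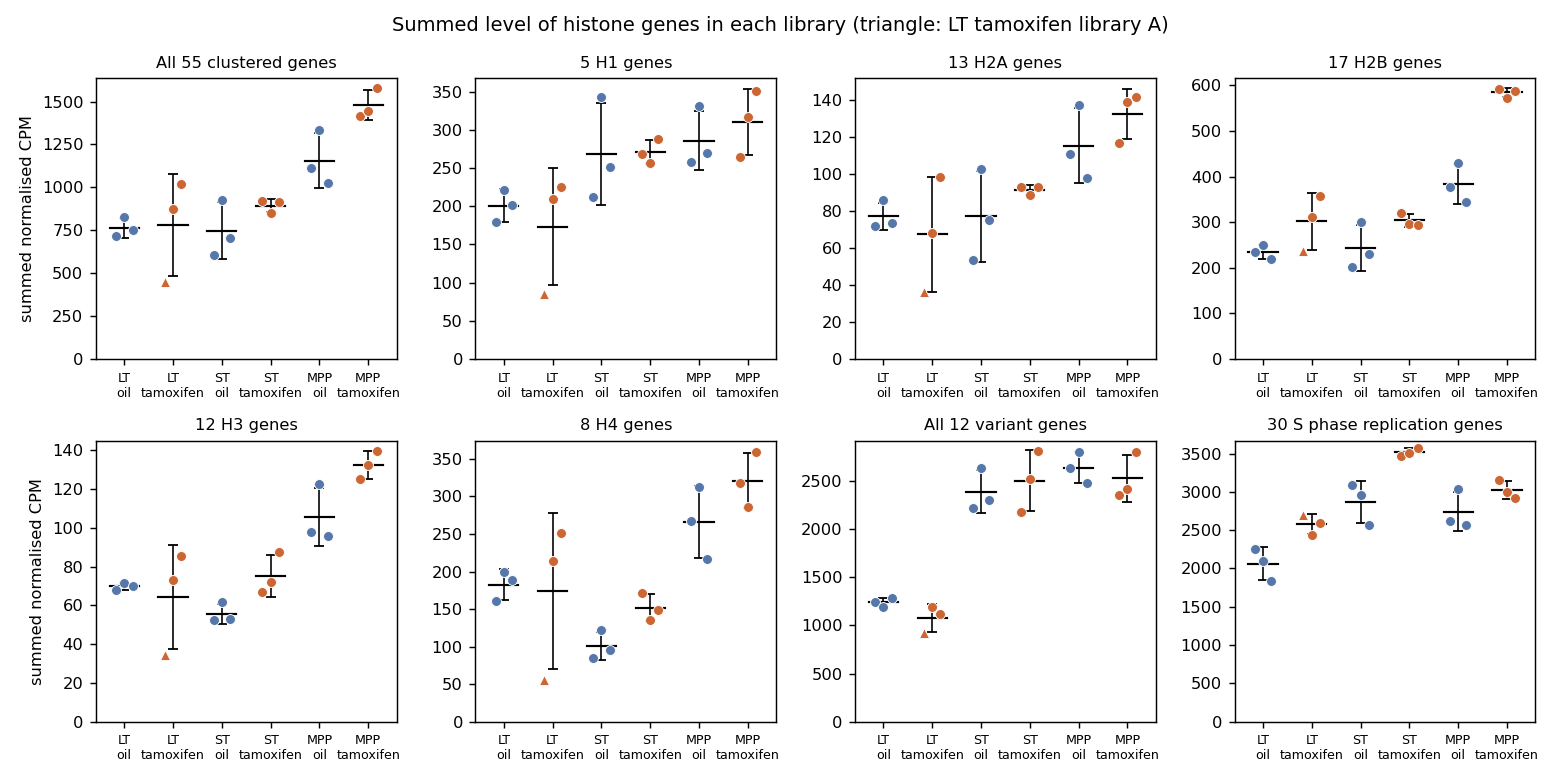
Summed normalised CPM of each histone class, of the variants and of 30 S phase replication genes in each of the 18 libraries (blue for oil, orange for tamoxifen). Horizontal lines are group means and bars are 1 SD over 3 libraries, and the triangle is LT tamoxifen A. The 3 MPP tamoxifen libraries lie between 572 and 593 CPM for H2B genes, and the variants are lowest in the 6 LT libraries.

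The summed levels set the outline. Clustered genes summed to 765 ± 57.8 CPM in LT oil, 746 ± 166 CPM in ST oil and 1156 ± 160 CPM in MPP oil (SD, n = 3). Variants summed to 1241 ± 47.3 CPM in LT oil, 2387 ± 221 CPM in ST oil and 2637 ± 158 CPM in MPP oil (SD, n = 3). In oil the clustered sums of LT and ST overlapped and those of MPP lay above both, while the variant sums of LT lay below those of ST and MPP. H3 and H4 genes were lowest in ST oil. H4 genes summed to 160 to 199 CPM in LT oil, 84.6 to 122 CPM in ST oil and 217 to 312 CPM in MPP oil, and H3 genes to 67.9 to 71.6, 52.3 to 61.6 and 95.8 to 123 CPM, with no overlap in either class. The H4 sum was mostly Hist1h4d, which gave 158 of 183 CPM in LT oil and 79.4 of 101 CPM in ST oil (means of 3 libraries). These sums are descriptions and were not tested.

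The comparison of ST with LT in oil asked how the 2 stem cell populations differ without drug. Of the 12 variants, 7 rose in ST and none fell: H2afj, H2afv, H2afy, H2afz, H3f3a, H3f3b and H3f3c. Of all genes tested 28.5% passed, 12.5% higher and 16% lower. The variants' median log2 fold change was 0.79, against 0.01 over all genes. In the fit without LT tamoxifen A, 8 variants passed (33.4% of all genes, 15.1% higher and 18.3% lower), the same genes and H2afy3, which was lower.

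H2afz, the main H2A.Z gene, had 138, 139 and 131 CPM in LT oil and 370, 531 and 251 CPM in ST oil. The lowest ST library lay well above the highest LT library. The log2 fold change was 1.42 (SE 0.20, adjusted p = 2.38e-05), and the value over the alternatives ranged from 2.39e-11 to 9.42e-04. H2afv, which encodes the second form of H2A.Z, had 17.2, 20.05 and 15.7 CPM in LT oil and 46.2, 55.8 and 35.03 CPM in ST oil, a log2 fold change of 1.30 (SE 0.22, adjusted p = 4.75e-05). Both H2A.Z genes therefore separated LT from ST in every library.

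H3f3a, 1 of the 2 genes for the H3.3 protein, had 301, 289 and 284 CPM in LT oil and 516, 669 and 561 CPM in ST oil. Its log2 fold change was 0.99 (SE 0.14, adjusted p = 5.87e-06). H3f3b, the other, had 211, 223 and 282 CPM in LT oil and 284, 405 and 327 CPM in ST oil, a log2 fold change of 0.50 (SE 0.15, adjusted p = 0.0108). For H3f3b the groups nearly touched, and its adjusted p was as high as 0.0976 among the alternatives. H3f3c, an annotated pseudogene of this family, had a log2 fold change of 0.87 (SE 0.21, adjusted p = 0.00325), and its reads could belong in part to the parent gene.

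H2afy, the gene for macroH2A1, had 352, 268 and 359 CPM in LT oil, 714, 572 and 789 CPM in ST oil and 1498, 1615 and 1377 CPM in MPP oil. The 3 populations did not overlap in any library, in the order LT, ST, MPP. The log2 fold changes were 1.08 for ST against LT (SE 0.15, adjusted p = 4.43e-06), 2.20 for MPP against LT (adjusted p = 2.75e-11) and 1.12 for MPP against ST (adjusted p = 2.47e-06). These comparisons share their oil libraries. H2afy2, for macroH2A2, was low, with 1.15, 0.67 and 3.20 CPM in LT oil, 4.77, 2.49 and 2.20 CPM in ST oil and 6.89, 6.16 and 6.20 CPM in MPP oil. It rose in MPP against LT (1.58, SE 0.36, adjusted p = 0.00232) and had log2 fold changes of 0.70 and 0.89 for ST against LT and MPP against ST that did not pass (adjusted p = 0.154 and 0.0625).

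**Figure D2:**
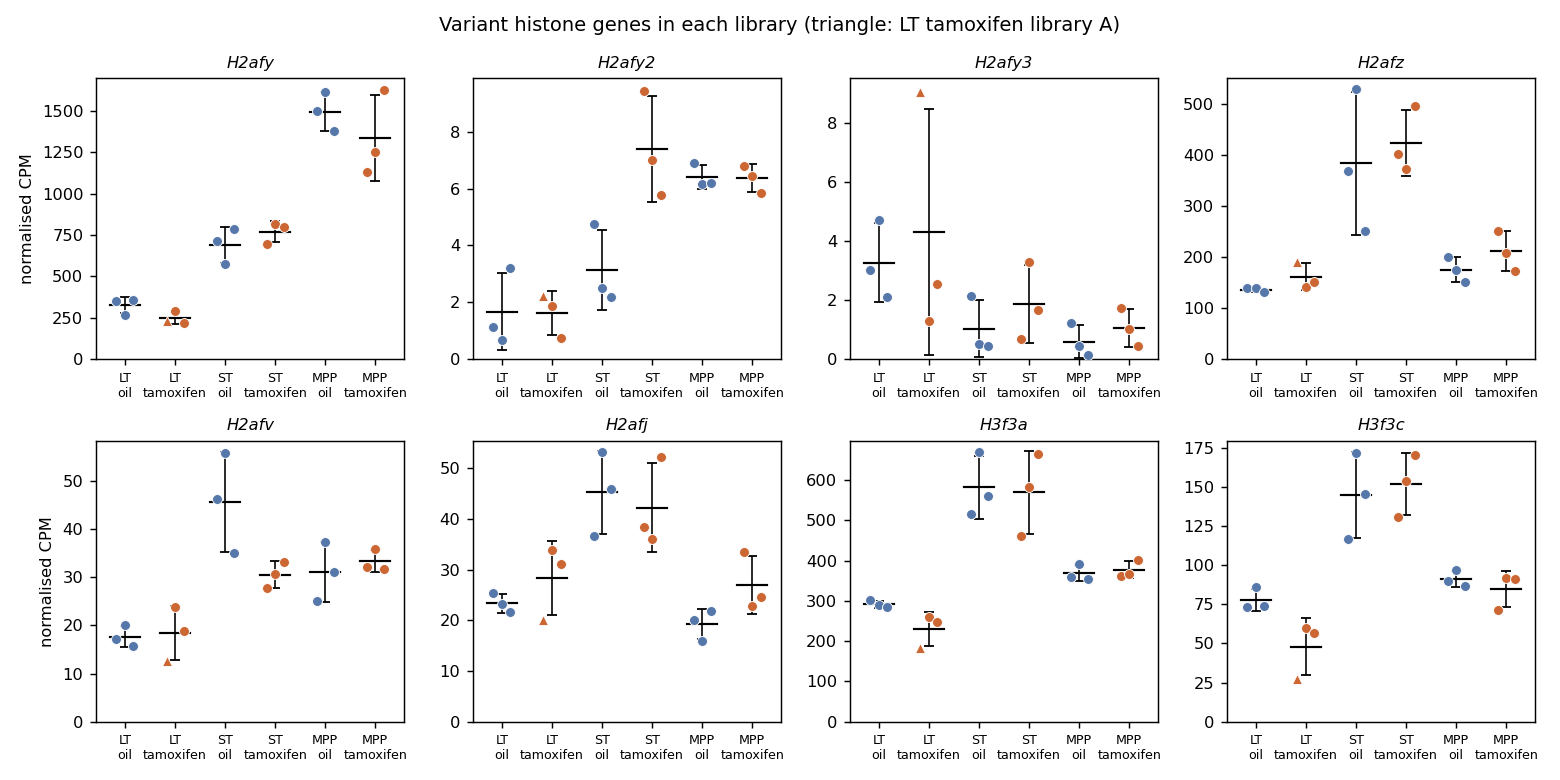
Normalised CPM of 8 variant histone genes in each library (blue for oil, orange for tamoxifen), with group means and bars of 1 SD over 3 libraries. H2afy rises from LT to ST to MPP, while H2afz, H2afj, H3f3a and H3f3c are, in oil, highest in ST.

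Of the clustered genes, 2 of 55 rose in ST against LT in oil and none fell, against 12.5% of all genes higher and 16% lower. The clustered median was -0.08, with 24 of 55 above 0, and its sign turned to 0.02 without ST oil A and 0.01 without ST oil C. Hist1h1a, a linker histone that binds DNA between nucleosomes, had 17.6, 17.9 and 21.3 CPM in LT oil and 31.1, 39.6 and 30.05 CPM in ST oil, a log2 fold change of 0.79 (SE 0.23, adjusted p = 0.0106). Hist1h4i, a gene for H4, passed as well (adjusted p = 0.00418), but on 2 reads in LT oil against 44 in ST oil, a ratio of 28.1 with an exact 95% counting interval from 7.34 to 239 (counting error only). Its ST oil libraries ranged from 1.61 to 9.11 CPM.

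When LT tamoxifen A was left out of the fit, 7 clustered genes passed in this comparison, 3 higher and 4 lower. Hist1h1e, a linker histone, was the added higher gene, and Hist1h3e, Hist1h3g, Hist1h4d and Hist2h4 were the lower ones. Hist1h4d had 138, 172 and 164 CPM in LT oil and 67.3, 88.6 and 82.2 CPM in ST oil. The groups were far apart, with a log2 fold change of -0.99 (SE 0.43, adjusted p = 0.113), and without that library the adjusted p was 3.11e-06. Hist2h4, also for H4, had 12.4, 11.2 and 11.3 CPM in LT oil and 5.10, 9.44 and 6.01 CPM in ST oil, with a log2 fold change of -0.72 (adjusted p = 0.114, and 0.0257 without that library). Leaving out LT oil A gave 4 clustered calls, 2 in each direction, and leaving out ST oil B gave 3, of which 2 were lower.

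Of 30 S phase replication genes (helicase subunits, polymerases and nucleotide enzymes), 15 rose in ST and none fell, against 12.5% of all genes higher and 16% lower, with a median log2 fold change of 0.51. Without LT tamoxifen A, 17 rose and 1 fell. Pcna, the sliding clamp of the replication fork, rose by 1.12 (SE 0.14, adjusted p = 7.41e-07). The supply lists went both ways. Like the S phase list, they were chosen with earlier results of these data known. Of 19 genes for histone mRNA processing and transcription 4 rose and 3 fell, with a median of -0.01: Slbp, which binds the histone stem-loop, rose by 0.49 (adjusted p = 0.0127), and Ccne1, for cyclin E1, fell by 1.36 (adjusted p = 8.45e-04). Of 17 replication-coupled chaperone genes 5 rose and 2 fell, with a median of 0.20, and without LT tamoxifen A 6 rose and 3 fell. Asf1a and Asf1b, which hand new H3 and H4 to the assembly machinery, rose by 0.70 and 0.73 (adjusted p = 0.00211 and 0.0385), while Ipo4, which imports H3 and H4, fell by 1.08 (adjusted p = 3.41e-04) and Cdan1 by 0.56 (adjusted p = 0.0228). Of 21 rows for variant chaperones 3 rose and 7 fell. The clustered H3 genes had a median of -0.35 and the H4 genes of -0.28, with 1 H4 gene (Hist1h4i) and no H3 gene past the threshold.

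In MPP against LT in oil, 7 of 55 clustered genes rose and none fell, against 7.76% of all genes higher and 7.01% lower. The 7 were Hist1h1a, the H2B genes Hist1h2bb, Hist1h2be, Hist1h2bk, Hist1h2bl and Hist1h2bm, and Hist1h3i. The clustered median was 0.49, with 49 of 55 genes above 0, where 48.3% of all genes were. With LT tamoxifen A left out, 13 rose and none fell, against 9.6% and 8.45% of all genes. Leaving out MPP oil 2, or LT oil C, left 4.

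Hist1h2bk had 61.2, 60.4 and 46.1 CPM in LT oil and 94.7, 94.1 and 87.5 CPM in MPP oil (log2 fold change 0.72, SE 0.20, adjusted p = 0.0123). Hist1h2bm had 54.3, 45.4 and 45.5 CPM in LT oil and 111, 114 and 87.0 CPM in MPP oil (log2 fold change 1.08, SE 0.27, adjusted p = 0.00869). Hist1h2bl had 28.0, 38.6 and 33.6 CPM in LT oil and 58.8, 80.9 and 51.1 CPM in MPP oil (log2 fold change 0.89, SE 0.19, adjusted p = 0.00120). All 3 are genes for the core histone H2B, and in each the lowest MPP library lay above the highest LT library. Hist1h1a rose by 1.09 (SE 0.23, adjusted p = 0.00108), with MPP oil at 39.0, 56.6 and 31.8 CPM. Hist1h2be rose by 0.91, Hist1h2bb by 1.08 and Hist1h3i by 1.50 on the log2 scale (adjusted p = 0.0135, 0.0192 and 0.00933). Hist1h3i rested on 23 reads in LT oil and 71 in MPP oil, and its adjusted p reached 0.129 over the alternatives.

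Among the variants in MPP against LT, H2afy, H2afy2 and H2afv rose and H2afy3 fell (4 of 12, against 14.8% of all genes). H2afv rose by 0.77 (SE 0.22, adjusted p = 0.0131), with MPP oil at 25.0, 37.4 and 31.0 CPM. H2afy3, an annotated pseudogene, fell by 1.44 on 5 reads in MPP oil against 38 in LT oil (adjusted p = 0.0401). Leaving out LT tamoxifen A, 5 variants were higher and 2 lower (18% of all genes), with H2afx and H3f3a added above and H1f0 below. H2afx had 95.1, 107 and 86.8 CPM in LT oil and 139, 187 and 151 CPM in MPP oil, a log2 fold change of 0.71 (SE 0.44, adjusted p = 0.367, and 0.0390 without that library). Leaving out MPP oil 2 left 2 variant calls.

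In MPP against ST in oil, 11 of 55 clustered genes rose and 1 fell, against 16.8% of all genes higher and 13.9% lower. The median was 0.54, with 45 of 55 above 0. The genes that rose spread over the core histones: Hist1h2ab for H2A, Hist1h2be, Hist1h2bk, Hist1h2bl and Hist1h2bm for H2B, Hist1h3d, Hist1h3e and Hist2h3c1 for H3, and Hist1h4c, Hist1h4d and Hist2h4 for H4. No H1 gene passed. With LT tamoxifen A left out, 20 rose and 1 fell, against 18.9% and 16.5% of all genes. The 20 include the identical rows Hist2h2aa1 and Hist2h2aa2.

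Hist1h4d had 226, 266 and 181 CPM in MPP oil against the 67.3 to 88.6 CPM of ST oil, a log2 fold change of 1.48 (SE 0.43, adjusted p = 0.0211). Hist2h4 had 21.5, 21.3 and 15.97 CPM in MPP oil, a log2 fold change of 1.42 (SE 0.34, adjusted p = 0.00215). Hist1h3e had 3.79, 2.49 and 2.79 CPM in ST oil and 8.24, 13.3 and 8.58 CPM in MPP oil, a log2 fold change of 1.44 (SE 0.35, adjusted p = 0.00242). For all 3 genes LT oil lay above ST oil in every library. Hist1h2be (1.19, adjusted p = 7.80e-04), Hist1h2bk (0.86, adjusted p = 0.00167) and Hist1h2bm (0.99, adjusted p = 0.00905) were higher in MPP than in both LT and ST, 2 comparisons that share the MPP oil libraries. Hist1h3d rested on 7 reads in ST oil and 36 in MPP oil (adjusted p = 0.0476), and Hist1h4c on 9 and 44 (adjusted p = 0.0120).

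Hist1h2bc was, in the fit to all 18 libraries, the only clustered gene that fell in any of the comparisons. It had 15.6, 21.0 and 16.6 CPM in ST oil, 13.03, 9.29 and 11.6 CPM in LT oil and 5.00, 6.73 and 9.37 CPM in MPP oil. The log2 fold change of MPP against ST was -1.25 (SE 0.27, adjusted p = 8.29e-04), and the adjusted p stayed at or under 0.00995 over the alternatives. Its annotated transcript held no stem-loop, while 3 of the 4 H2B genes that rose had one (Hist1h2bl did not). In this comparison 10 of the 37 clustered genes with an annotated stem-loop rose, and of the 18 without one, 1 rose and 1 fell. Some of these 18 have short annotated transcripts, such as Hist1h2bl (381 bases), Hist1h3i (411 bases) and Hist1h4k (312 bases), which may stop before a stem-loop. The split therefore describes the annotation, and the difference was not tested.

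**Figure D3:**
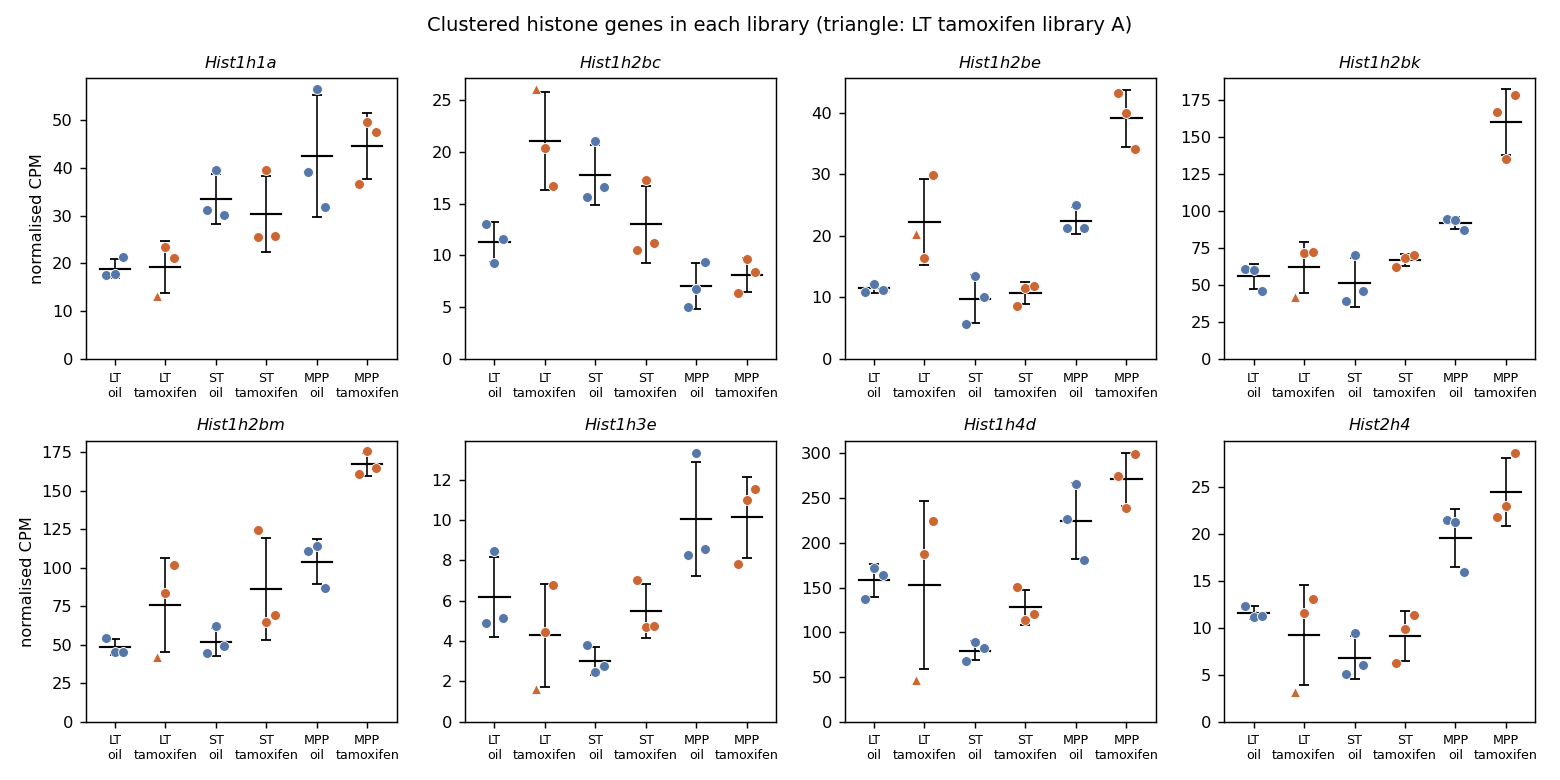
Normalised CPM of 8 clustered histone genes in each library (blue for oil, orange for tamoxifen), with group means and bars of 1 SD over 3 libraries. Hist1h4d and Hist2h4 are lowest in ST oil among the oil groups, and Hist1h2bc is lowest in the MPP groups.

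Of the variants, 4 of 12 fell in MPP against ST and 1 rose. H2afj, H2afz, H3f3a and H3f3c fell in MPP and H2afy rose, 5 of 12 against 30.7% of all genes. H2afj, an H2A variant gene, had 36.7, 53.2 and 45.9 CPM in ST oil and 20.1, 15.9 and 21.8 CPM in MPP oil, a log2 fold change of -1.19 (SE 0.21, adjusted p = 1.28e-04). H2afz had 201, 175 and 152 CPM in MPP oil, a log2 fold change of -1.07 (SE 0.20, adjusted p = 4.11e-04). H3f3a had 359, 392 and 355 CPM in MPP oil (-0.65, SE 0.14, adjusted p = 6.98e-04), and H3f3c had a log2 fold change of -0.64 (adjusted p = 0.0232). These 4 genes were thus higher in ST than in both LT and MPP, in comparisons that share the ST oil libraries. When LT tamoxifen A was left out, H2afv also fell, which made 6 of 12 (35.3% of all genes).

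Genes on lists of cell type markers differed between the same groups. Whether their reads came from the sorted cells or from other cells was not measured. Of 14 measured erythroblast genes, 7 were lower in ST than in LT and 8 lower in MPP than in LT, and their sum was 2275 to 2786 CPM in LT oil, 705 to 904 CPM in ST oil and 492 to 607 CPM in MPP oil. Of 10 neutrophil genes, 5 were higher in ST and 7 in MPP than in LT, with sums of 42.1 to 93.4 CPM in LT oil, 135 to 317 CPM in ST oil and 183 to 640 CPM in MPP oil. Of 8 macrophage and monocyte genes, 3 were higher in ST and 5 in MPP than in LT, with sums of 263 to 314, 544 to 751 and 465 to 546 CPM. The 6 measured B cell genes summed to 78.0 to 123, 24.7 to 59.0 and 81.6 to 125 CPM in LT, ST and MPP oil, the 4 T and NK cell genes to 20.2 to 41.7, 108 to 125 and 60.5 to 79.1 CPM, the 8 megakaryocyte genes to 153 to 197, 143 to 252 and 41.5 to 49.7 CPM, and the 4 stromal genes to 67.6 to 88.3, 87.8 to 118 and 154 to 166 CPM. Gp1bb, of the megakaryocyte genes, had 0 reads in MPP oil. The 10 stem and progenitor genes were present in all groups, summing to 3238 to 3652 CPM in LT oil, 1820 to 2494 CPM in ST oil and 3275 to 3671 CPM in MPP oil. The part of these markers in the histone differences was not tested.

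**Figure D4:**
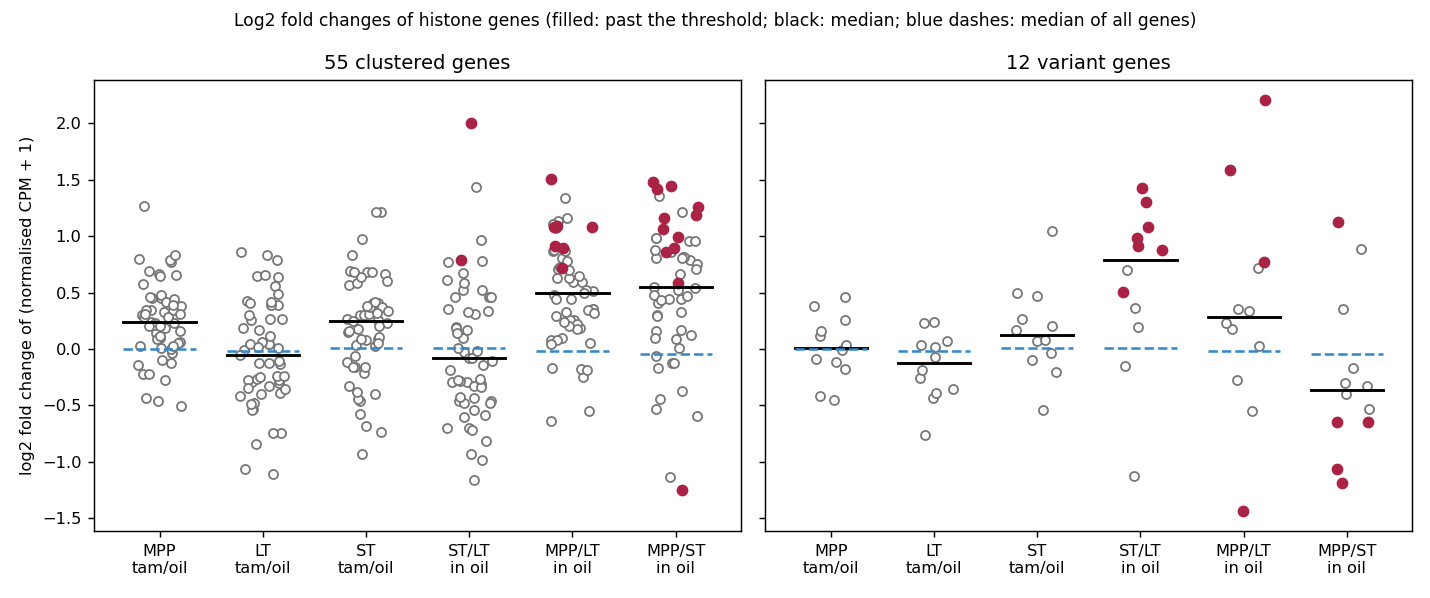
Log2 fold changes of the 55 clustered and 12 variant genes in 6 comparisons. Each point is a gene, filled where its limma adjusted p was under 0.05. Black lines are the members' medians and blue dashes the medians of all genes. No point is filled in the 3 tamoxifen comparisons, and the clustered medians of MPP against LT and ST are 0.49 and 0.54.

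Tamoxifen against oil asked what the drug, which binds oestrogen receptors, changed within each population. No histone gene passed the test in any of the 3 populations. The share of all genes that passed was 0.0555% in MPP (0.0347% higher and 0.0208% lower), 0.416% in LT (0.139% higher and 0.277% lower) and 9.61% in ST. These shares moved with single libraries: of 14419 genes, 8 passed in MPP with all libraries and 0 to 40 with 1 left out, and 60 in LT and 9 to 330. The highest were without MPP oil 3 and LT tamoxifen B, and the lowest without MPP oil 2 or MPP tamoxifen 2 and without LT oil C. In ST 1386 passed, against 654 without ST oil A, 669 without ST tamoxifen C, 855 without ST tamoxifen B and 904 without ST oil B. In the test of the ST effect minus the LT effect 8 passed, and 0 to 122 with 1 library left out. At an unadjusted p under 0.05, limma gave 8 clustered genes and 1 variant in MPP, 6 and 3 in LT, and 3 and 2 in ST. The share of all genes at this unadjusted cut was not counted, so no excess or lack among histone genes can be read from these counts. With edgeR's quasi-likelihood test the counts past the adjusted threshold were 0 as well, and with DESeq2 they were 1 clustered gene in MPP, 1 variant in LT and 1 clustered gene in ST. Over all 14419 genes edgeR called 5, 58 and 1175 in MPP, LT and ST, and DESeq2 called 28, 336 and 1491. Changes near or under the standard errors given above were not detectable at this depth and number of libraries. Larger changes could also fall short of the threshold, as did Hist1h2bk in MPP (log2 fold change 0.78, limma adjusted p = 0.242).

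In MPP the clustered genes lay mostly above 0 after 1 week of tamoxifen. Their median log2 fold change was 0.24 with 44 of 55 above 0, against 0.00 and 49.99% for all genes. Their groups did not overlap for 11 genes, all higher, where 7.66% of all genes were higher and 7.23% lower without overlap. The summed clustered genes were 1111, 1333 and 1023 CPM in oil and 1417, 1446 and 1578 CPM with tamoxifen. The H2B genes summed to 377, 429 and 343 CPM in oil and 593, 588 and 572 CPM with tamoxifen. None of these sums overlapped, and none was tested.

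Hist1h2bk had 94.7, 94.1 and 87.5 CPM in MPP oil and 167, 135 and 178 CPM in MPP tamoxifen, a log2 fold change of 0.78 (SE 0.20, adjusted p = 0.242, and 0.0285 without LT tamoxifen A, where 0.153% of all genes passed, 0.104% higher and 0.0485% lower). Its adjusted p ranged from 0.00631 to 0.821 over the alternatives. Hist1h2bm had 111, 114 and 87.0 CPM in oil and 161, 176 and 165 CPM with tamoxifen (0.69, SE 0.27, adjusted p = 0.821). Hist1h2be had 21.2, 25.1 and 21.3 CPM in oil and 43.1, 40.0 and 34.1 CPM with tamoxifen (0.77, SE 0.26, adjusted p = 0.589). In these 3 H2B genes every tamoxifen library lay above every oil library, and none passed the adjusted threshold. Hist1h2bg, also for H2B, had 13.7, 15.0 and 17.6 CPM in oil and 26.9, 23.5 and 24.4 CPM with tamoxifen (0.66, adjusted p = 0.817). Hist2h3b, for H3, had 17.4, 12.46 and 18.6 CPM in oil and 35.4, 21.7 and 32.4 CPM with tamoxifen (0.83, adjusted p = 0.788).

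The other classes shifted less in MPP. H4 genes summed to 217 to 312 CPM in oil and 285 to 358 CPM with tamoxifen, and H1 genes to 258 to 331 and 265 to 350 CPM. H2A genes summed to 97.8 to 138 and 117 to 142 CPM. The groups overlapped in each of these classes. H3 genes, at 95.8 to 123 CPM in oil and 125.1 to 139.5 CPM with tamoxifen, did not overlap. The variants' median was 0.01 with 6 of 12 above 0, and 1 was higher without overlap (H2afj) and 1 lower (H1f0, a linker histone variant of non-dividing cells). H1f0 had 19.3, 20.2 and 15.97 CPM in oil and 11.9, 14.2 and 14.7 CPM with tamoxifen. The S phase genes had a median of 0.13 in this comparison, with 27 of 30 above 0 and none past the threshold. Markers moved here too: macrophage and monocyte genes summed to 465 to 546 CPM in oil and 591 to 792 CPM with tamoxifen, with none of 8 past the threshold, and the erythroblast sums are given below. Their part in the histone values was not tested.

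In LT the direction of the clustered genes depended on 1 library and on the scaling. Their median was -0.06 with 26 of 55 above 0, but 0.05 after quantile normalisation and 0.06 with edgeR or DESeq2, and 0.23 with 39 of 55 above 0 when LT tamoxifen A was left out. It was -0.22 with 18 of 55 above 0 when LT tamoxifen C was left out. Without LT tamoxifen A 1 clustered gene passed, Hist1h2bm, with a log2 fold change of 0.92 (adjusted p = 0.0486, against 0.354% of all genes, 0.146% higher and 0.208% lower). Hist1h2bm had 54.3, 45.4 and 45.5 CPM in LT oil and 42.4, 83.5 and 102 CPM in LT tamoxifen. The first of these, library A, lay below the oil libraries and the others far above.

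Hist1h2be and Hist1h2bc were higher in every LT tamoxifen library, A included. Hist1h2be had 10.9, 12.3 and 11.3 CPM in oil and 20.4, 16.4 and 29.9 CPM with tamoxifen (0.86, SE 0.26, adjusted p = 0.115). It passed when LT tamoxifen B was left out (adjusted p = 0.0447). Hist1h2bc had 13.03, 9.29 and 11.6 CPM in oil and 26.0, 20.4 and 16.7 CPM with tamoxifen (0.83, SE 0.27, adjusted p = 0.143). In all, 5 clustered genes were higher without overlap and 1 lower, where 9.04% of all genes were higher and 9.36% lower without overlap. The lower one, Hist1h2ai, had 19 reads in LT oil and 1 in LT tamoxifen.

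Among the variants in LT, H3f3c and H3f3a lay lower without overlap and H2afz higher, against 9.36% and 9.04% of all genes. H2afz had 138, 139 and 131 CPM in oil and 191, 141 and 152 CPM with tamoxifen, where library A was the highest. H3f3c had 73.5, 86.0 and 73.7 CPM in oil and 27.2, 59.8 and 57.0 CPM with tamoxifen (-0.76, SE 0.21, adjusted p = 0.0997, and 0.0235 to 0.341 over the alternatives). H3f3a had 301, 289 and 284 CPM in oil and 183, 259 and 248 CPM with tamoxifen (-0.36, SE 0.14, adjusted p = 0.227). The lowest value of H3f3c and of H3f3a was again library A. The variants' median was -0.13, with 5 of 12 above 0, and with 1 library left out it ran from -0.29 (without LT tamoxifen B) to -0.04 (without library A). Of the 10 stem and progenitor markers 1 fell in LT tamoxifen, and they summed to 3238 to 3652 CPM in oil and 2289 to 2642 CPM with tamoxifen. No gene of the other marker lists passed, but 3 more sums did not overlap: megakaryocyte genes had 153 to 197 CPM in oil and 215 to 322 CPM with tamoxifen, T and NK cell genes 20.2 to 41.7 and 7.43 to 19.1 CPM, and stromal genes 67.6 to 88.3 and 54.4 to 64.5 CPM. All 10 neutrophil genes lay below 0, with sums of 42.1 to 93.4 and 23.2 to 47.8 CPM that overlapped. The part of these markers in the histone values of LT was not tested.

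In ST, where 9.61% of all genes passed (6.01% higher and 3.6% lower), the clustered median was 0.25 with 40 of 55 above 0, against 0.01 over all genes. It was 0.09 with 33 of 55 above 0 without ST oil A, and 0.41 with 43 of 55 without ST oil B. None of the 67 histone genes passed. In the fit without LT tamoxifen A, 4 clustered rows passed, all higher, and 2 variants, against 14.7% of all genes (9.28% higher and 5.43% lower). These were Hist1h4d, Hist1h2bm and the identical rows Hist1h2ao and Hist1h2ap, with H2afy2 higher and H2afv lower.

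Hist1h4d had 67.3, 88.6 and 82.2 CPM in ST oil and 150.5, 114 and 120.1 CPM in ST tamoxifen. Every tamoxifen library lay above every oil library, with a log2 fold change of 0.68 (SE 0.43, adjusted p = 0.361, and 0.00140 without LT tamoxifen A). Hist1h2bm had 44.6, 62.1 and 49.4 CPM in oil and 124, 64.7 and 69.5 CPM with tamoxifen (0.67, SE 0.27, adjusted p = 0.124, and 0.0160 without that library). Tamoxifen library A of ST alone was far above the oil range for this gene. Hist1h2ao, with Hist1h2ap, had 0.49, 5.14 and 2.20 CPM in oil and 5.71, 7.29 and 5.52 CPM with tamoxifen (1.21, SE 0.42, adjusted p = 0.0659), on 23 and 67 reads. Leaving out ST oil B gave 3 clustered rows past the threshold in ST, the same pair and Hist1h2bk.

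H2afy2, for macroH2A2, had 4.77, 2.49 and 2.20 CPM in ST oil and 9.43, 7.00 and 5.78 CPM in ST tamoxifen, on 28 and 81 reads. The groups did not overlap, and the adjusted p was 0.0637 (0.0441 without LT tamoxifen A). H2afv, for H2A.Z, had 46.2, 55.8 and 35.03 CPM in oil and 27.8, 30.7 and 33.3 CPM with tamoxifen (-0.54, SE 0.22, adjusted p = 0.109, and 0.0492 without that library). H2afy itself had 714, 572 and 789 CPM in oil and 698, 814 and 798 CPM with tamoxifen, and the groups overlapped. The genes with the most reads in each class also stayed short of the threshold in every tamoxifen comparison with all libraries: Hist1h1e and Hist1h1b for H1, Hist1h2ak and Hist2h2aa1 for H2A, Hist1h2bm and Hist1h2bk for H2B, Hist2h3b and Hist2h3c1 for H3, Hist1h4d and Hist2h4 for H4, and H2afy and H3f3a among the variants. At the other end, Hist2h2ab had 0 reads in LT oil, Hist1h2bp and Hist1h4i had 2 each in LT oil, and Hist1h2ai had 1 in LT tamoxifen.

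The difference between the tamoxifen effects of ST and LT was tested directly, without joining LT and ST libraries of the same letter. No histone gene passed it, with 0.0555% of all genes past the threshold (0.0416% with a larger effect in ST), 5 clustered genes and 2 variants at an unadjusted p under 0.05 by limma, and 0 calls among histone genes by edgeR and DESeq2. When LT tamoxifen A was left out, 0.846% of all genes passed and again no histone gene. The clustered genes' median difference was 0.12, and with 1 library left out it ran from -0.07 (without LT tamoxifen A) to 0.42 (without LT tamoxifen C). No test compared MPP with the other populations in their response to tamoxifen, because the durations differed.

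Genes that supply and place histones passed the test in ST, where no histone gene did. The lists were 4: histone mRNA 3′ processing and transcription, replication-coupled chaperones, variant chaperones and exchange complexes, and S phase replication. They were chosen with earlier results of these data known, so their counts are descriptions. In ST tamoxifen 5 of 19, 7 of 17, 5 of 21 and 7 of 30 measured rows rose, and none fell, against 6.01% of all genes higher. Mcm2 is counted in both the replication-coupled and the S phase list. The medians were 0.33, 0.40, 0.16 and 0.24, beside 0.25 for the clustered histone genes. Clustered genes had a larger median standard error, 0.38 against 0.25 over all genes, so the calls do not set the lists apart from them. Leaving out LT tamoxifen A, the counts were 7, 8, 6 and 9 higher and 1 lower (in the variant chaperones). In LT and MPP no gene of any list passed with or without that library. The list medians in LT were 0.27, 0.18, 0.125 and 0.27 (0.15, 0.23, -0.03 and 0.29 without that library). Those in MPP were -0.02, 0.03, -0.001 and 0.13. No gene of the 4 lists passed the test of the difference between the effects in ST and LT either, so an effect particular to ST is not shown.

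Among the processing and transcription genes, Cpsf2, a subunit of the complex that cuts histone pre-mRNA, had 137, 151 and 168 CPM in ST oil and 217, 204 and 225 CPM in ST tamoxifen (0.50, SE 0.12, adjusted p = 0.00956). Ncbp1, of the nuclear cap-binding complex, rose by 0.58 (adjusted p = 0.00961). Ccne1, the cyclin whose kinase activates histone transcription, had 5.10, 3.48 and 3.66 CPM in oil and 12.6, 12.1 and 6.55 CPM with tamoxifen, the largest log2 change of the list at 1.14 (SE 0.29, adjusted p = 0.0139). Npat, the coactivator of histone transcription, had a log2 fold change of 0.45 that did not pass (adjusted p = 0.0677). Slbp had 0.06 (adjusted p = 0.829).

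Among the replication-coupled chaperones, Rbbp7, a histone-binding subunit of the H4 acetyltransferase complex, had 192, 193 and 216 CPM in ST oil and 280, 316 and 305 CPM in ST tamoxifen. It rose by 0.58 (SE 0.11, adjusted p = 0.00189). Ipo4, which imports H3 and H4 into the nucleus, had 19.2, 24.4 and 27.7 CPM in oil and 34.7, 53.6 and 49.7 CPM with tamoxifen (0.91, SE 0.21, adjusted p = 0.00720). Mcm2, a helicase subunit that also binds parental H3 and H4, rose by 0.58 (adjusted p = 0.00609), and Chaf1a, the large subunit of the chromatin assembly factor CAF-1, by 0.61 (adjusted p = 0.0484). Asf1b had 0.40 (adjusted p = 0.355).

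Among the variant chaperones, Anp32e, which removes H2A.Z from nucleosomes, had 182, 224 and 217 CPM in ST oil and 345, 302 and 327 CPM in ST tamoxifen (0.65, SE 0.14, adjusted p = 0.00552). Daxx, an H3.3 chaperone, had 20.6, 17.4 and 20.1 CPM in oil and 45.0, 41.9 and 21.7 CPM with tamoxifen (0.81, SE 0.21, adjusted p = 0.0141), with library C just above the oil range. Ruvbl2, an ATPase of the H2A.Z exchange complexes, rose by 0.59 (adjusted p = 0.00486), and Hira, the other H3.3 chaperone, had 0.08 (adjusted p = 0.770). Of the S phase genes, Mcm6 had 177, 175 and 206 CPM in oil and 278, 295 and 298 CPM with tamoxifen (0.64, SE 0.12, adjusted p = 0.00169), and Rrm1, of ribonucleotide reductase, rose by 0.58 (adjusted p = 0.00631).

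Genes on the marker lists also moved in ST tamoxifen. Of 14 erythroblast genes 4 rose, among them Ermap (1.80, adjusted p = 0.00481), and their sum was 705 to 904 CPM in oil and 1034 to 1373 CPM with tamoxifen. Of 8 macrophage and monocyte genes 1 rose (Mpeg1, 0.97, adjusted p = 0.0456), with sums of 544 to 751 and 678 to 737 CPM. Of 8 megakaryocyte genes 1 rose (Ppbp, 1.74, adjusted p = 0.00633, from 3 reads in ST oil), and of 4 stromal genes 1 rose (Vcam1, 1.19, adjusted p = 0.0238). Of 10 stem and progenitor genes 1 rose (Mecom, 0.74, adjusted p = 0.00746). No neutrophil, B cell or T and NK cell gene passed. In MPP tamoxifen 2 of 14 erythroblast genes rose, with sums of 492 to 607 CPM in oil and 490 to 1221 CPM with tamoxifen. The part of these markers in the histone and chaperone values was not tested.

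**Figure D5:**
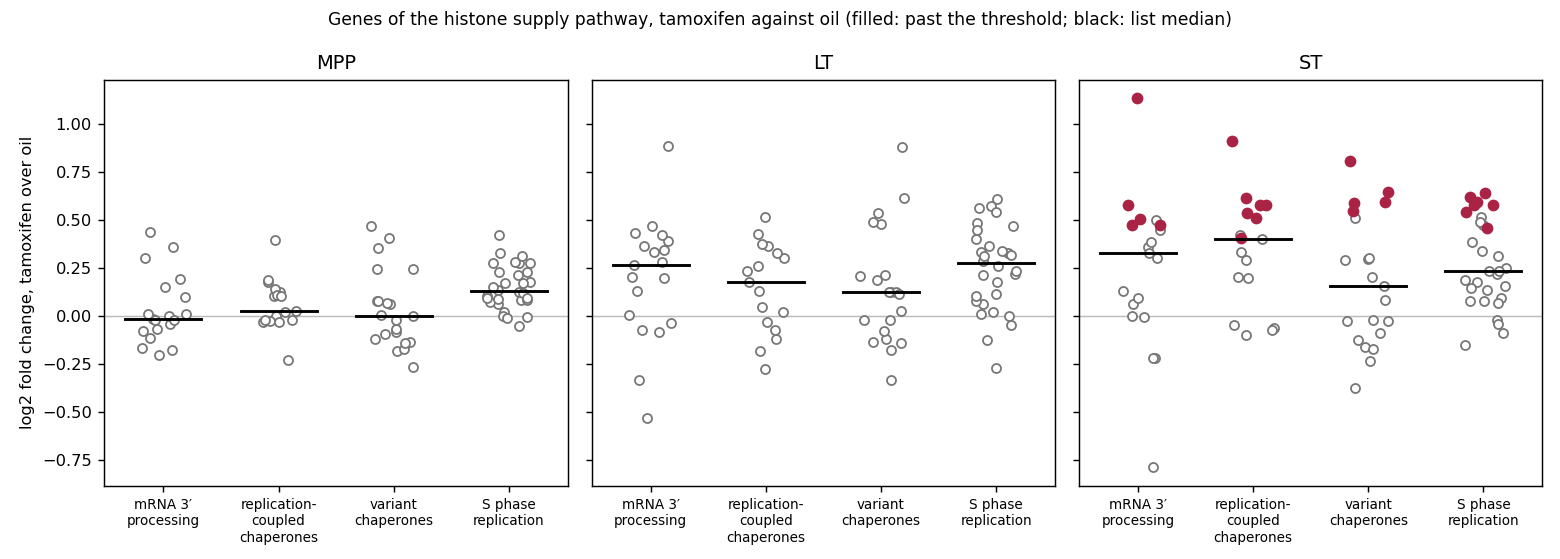
Log2 fold changes of tamoxifen over oil for 4 lists of genes that process, transport and deposit histones or replicate DNA, in MPP, LT and ST. Each point is a gene, filled where its limma adjusted p was under 0.05, and black lines are list medians. Filled points occur in ST alone, where 5, 7, 5 and 7 rows passed, with Mcm2 in both the replication-coupled and the S phase list.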

How the data were processed

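RNA was measured in 18 libraries, 3 in each of 6 groups. Per the labels' protocols, Picopure-extracted total RNA was turned into amplified cDNA (Ovation RNA-Seq System V2), then sonicated and ligated to Illumina adaptors. How well mRNAs without a poly(A) tail were captured was not tested. The submitters' processing notes name cutadapt, Picard, RSEM 1.17, limma and the build NCBIM37. The deposited table holds a normalised signal in counts-per-million form. In it 100.0% of values were a whole read count plus 0.5, times 1 constant per library, within 0.001 reads, and the recovered reads gave the depths.

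Members were the rows whose symbol fitted the name rule. The members and lists were chosen with earlier results of these data known. limma 3.58.1 (R 4.3.3) was run on log2(value + 1) with trend and robust settings, 1 mean per group, 12 residual degrees of freedom and Benjamini-Hochberg adjustment over 14419 genes. Tests were two-sided. The fit was tested on simulated reads with known changes. Alternatives were a pseudocount of 0.5, a mean of at least 5 CPM, quantile normalisation, edgeR 4.0.16 and DESeq2 1.42.0 on recovered reads, the compared groups alone, a replicate block and leaving out each library. Genes named were all members past the threshold, the 2 most read of each class, members under 3 reads in a group, and from each list the 3 smallest p in ST tamoxifen (1 where none passed), and some others chosen after their values were seen. No library was a duplicate: over genes with at least 20 reads in a pair, chi-square per degree of freedom was 2.79 or more in all 18 pairs within groups, and no value was identical. Motifs and stem-loops were searched in RefSeq (GRCm38.p6) and GENCODE vM21, matched by symbol, whose build differs from that of the table. Of the member identifiers, 13 were absent from GENCODE vM21 and 4 carried another symbol there. Protein sequences were not used here.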

Additional observations from a re-analysis of the deposited data

How the results depend on the processing

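Of 37 histone results past the threshold, 22 stayed past it under every alternative in which they had a value, and no value changed sign. With a mean of at least 5 CPM, 8 of 9 results had a value in ST against LT, 8 of 11 in MPP against LT and 15 of 17 in MPP against ST. The replicate block was not run for MPP against LT or ST. Of 484 alternative values, 43 were no longer past the threshold, 38 of them with 1 library left out. Counts of clustered genes in tamoxifen comparisons moved from 0 as follows: in MPP to 1 with DESeq2, 2 with only the groups compared and 1 in the fit without LT tamoxifen A. In ST they moved to 2 with quantile normalisation, 1 with DESeq2, 1 with only the groups compared and 4 without LT tamoxifen A. The 2 were the identical rows Hist1h2ao and Hist1h2ap, which were also among the 4. Leaving out 1 library gave 0 to 1 in LT and 0 to 3 in ST. Variant counts moved from 0 to 1 with DESeq2 in LT, to 1 with quantile normalisation in ST and to 2 in ST without LT tamoxifen A, and leaving out 1 library gave 0 to 1 in LT.

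In ST against LT the clustered count of 2 became 1 with a mean of at least 5, 4 with only the groups compared, 7 without LT tamoxifen A (3 higher, 4 lower) and 2 to 4 with 1 library left out. In MPP against LT the clustered count of 7 became 17 with only the groups compared, 13 without LT tamoxifen A and 4 to 9 with 1 library left out. The variant count of 4 became 2 with a mean of at least 5, 8 with only the groups compared, 7 without LT tamoxifen A and 2 to 4 with 1 library left out. In MPP against ST the clustered count of 12 became 22 with quantile normalisation, 21 with only the groups compared and 21 without LT tamoxifen A. The variant count of 5 became 8 with quantile normalisation. The larger counts without LT tamoxifen A or with fewer groups came with a spread estimated from fewer libraries, and the cause was not tested further.

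Same-numbered libraries of oil and tamoxifen did not deviate together: their correlations ran from -0.0607 to 0.201. LT oil and ST oil of the same letter had 0.0782, 0.0963 and 0.119, each the highest for its library, and those of tamoxifen had 0.146, 0.0991 and 0.118. With the replicate block, 1 variant (H3f3c) passed in LT tamoxifen and 3 clustered genes in ST against LT, and the block moved no other count of histone genes by over 1.5 times. Over all genes, the block took the calls from 60 to 75 in LT tamoxifen and from 4104 to 4020 in ST against LT. It took those of the ST minus LT tamoxifen difference from 8 to 34. In that test the block joined oil and tamoxifen libraries of the same label within a population. Libraries of LT and ST with the same letter were joined only for ST against LT in oil. No paired analysis was possible for MPP against LT or ST because they share no replicate label. edgeR on recovered reads called 5 genes in MPP, 58 in LT and 1175 in ST for tamoxifen, and 3987, 2114 and 4309 for ST against LT, MPP against LT and MPP against ST. Depth limits the low clustered genes: 21 of 55 had a mean under 5 CPM, 4 rows had fewer than 3 reads in a group, and Hist2h2ab had 0 reads in LT oil.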

Other observations

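The annotated ends of the clustered genes were set beside the tamoxifen comparison of LT. The 19 genes whose transcript runs more than 100 bases past the stem-loop had a median log2 fold change of -0.28, with 5 above 0. The 18 whose transcript ends within 100 bases had a median of 0.04, with 12 above 0, and the 18 with no stem-loop in the annotated transcript had 0.09, with 9 above 0. In LT tamoxifen A the 3 sets summed to 163, 132 and 152 CPM, against 340 to 432, 160 to 199 and 176 to 206 CPM in LT oil. In B and C the longer set had 431 and 518 CPM, the set ending near the stem-loop 240 and 280 CPM and the set without one 205 and 221 CPM, so the low values were those of library A. In MPP tamoxifen the set ending near the stem-loop had 454 to 495 CPM against 277 to 345 CPM in oil, and the longer set had 631 to 737 CPM against 494 to 641 CPM. These splits were made after the values were seen and were not tested.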
